A study of Rattus norvegicus with 8 samples.

Results

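The 10 genes described here carry out iron handling in the liver: hepcidin (Hamp), the receptors Tfrc and Tfr2, transferrin (Tf), ferritin heavy chain (Fth1), the exporter ferroportin (Slc40a1), the hepcidin inducer Bmp6, ceruloplasmin (Cp), heme oxygenase 1 (Hmox1) and the divalent metal importer Slc11a2. They were chosen by name, as every non-control probe whose gene name in the array files equals 1 of these symbols. The rule found 25 probes on 43 spots, of 46883 distinct probes under 25512 gene names.

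Transcript levels were measured in liver RNA of male Sprague Dawley rats, an outbred laboratory stock, on 8 single-colour (Cy3) Agilent arrays. High-fat arrays, 4 in number, came from rats kept 12 weeks on a diet of 60% fat, and the 4 control arrays from rats on normal diet over the same 12 weeks. The label weight is 180 to 200 g in both groups, and when it was taken is not stated. The series concerns insulin resistance brought on by the high-fat diet, and no allele, transgene or drug is named for either group. Whether each array holds a different animal is not stated in the labels, and p-values therefore reflect only how much these samples vary. All 8 arrays shared 1 slide of 2 rows, either row holding 2 control and 2 high-fat arrays, and between 50.4% (control replicate 1) and 71.9% (control replicate 4) of probes were well above background. Of the 7 tested hepatocyte markers limma called 0 and 1 had an unadjusted p under 0.05, Cps1 of the urea cycle, at a log2 change of 0.98 (adjusted p = 0.20 by limma), while albumin (Alb) was at -0.09 (adjusted p = 0.83 by limma). The mean level of the 7 hepatocyte markers spanned 5.003 to 5.27 on control and 5.01 to 5.43 on high-fat arrays.

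Iron reaches hepatocytes mainly bound to transferrin, is stored in ferritin, and leaves cells through ferroportin, to be oxidized by ceruloplasmin. Hepcidin, a peptide hormone secreted by hepatocytes, binds ferroportin and has it degraded, and so sets how much iron enters the blood. Its transcription is raised by bone morphogenetic proteins such as BMP6, made in the liver mainly by sinusoidal endothelial cells, and by interleukin 6 through STAT3. Cells with little iron hold transferrin receptor mRNA stable and ferritin mRNA untranslated through the iron regulatory proteins, so ferritin protein cannot be read from its mRNA.

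None of the 10 genes passed the test between the diets. Levels are normalized log2 intensities, which set each probe against the upper quartile of its array, so that 0 is that quartile and a difference of 1 is a 2-fold change. Levels of different probes depend on the probe and are not compared. A probe was tested if it was well above background on at least 4 arrays. A probe was called where limma, after Benjamini-Hochberg adjustment across the 31547 probes tested, gave an adjusted p under 0.05. The brightest tested probe of a gene stands for it, and all 10 genes had one. Limma called 0 of the 10 genes and 0 of their 24 tested probes, beside 0.877% of the 18596 tested genes and 0.907% of the tested probes. At an unadjusted p under 0.05 there were 3 genes, Slc11a2, Cp and Tfr2, and 6 probes, or 25% of the 24, beside 15.6% of all genes and 15.4% of all probes. The smallest adjusted p of any of the probes was 0.109. In none of the alternative settings was any of the 10 genes called.

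**Figure D1:**
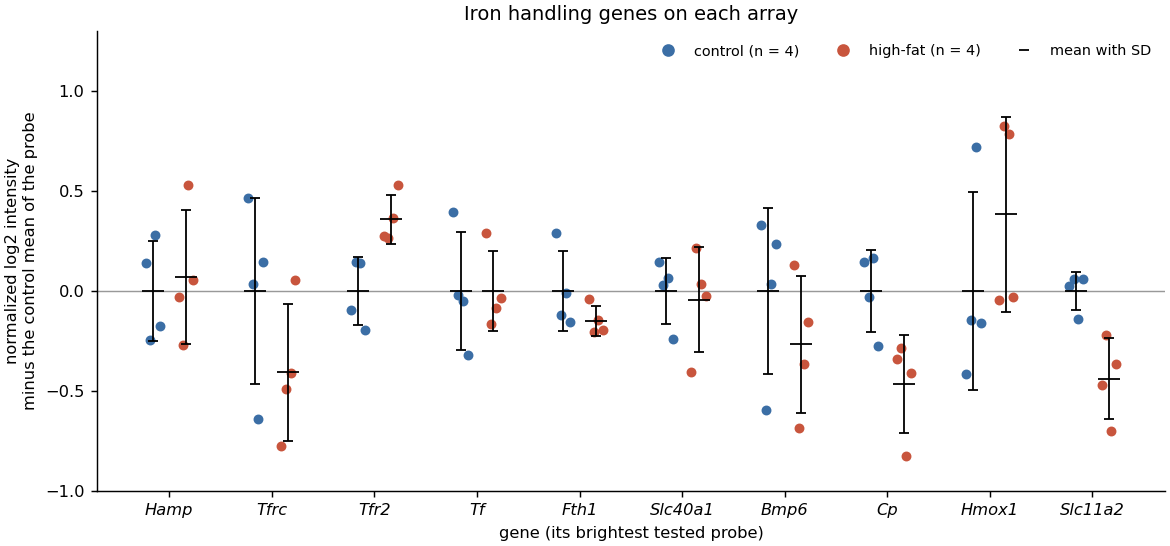
Level of each iron handling gene on every array, as normalized log2 intensity minus the control mean of its brightest tested probe, with control arrays in blue, high-fat arrays in red and bars for mean and SD (n = 4 per diet). The diets do not overlap for Tfr2, Cp and Slc11a2 and overlap for the other 7 genes, and no gene passed the adjusted test.

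The sizes that these arrays can bound differ between the genes. Log2 changes of the 10 genes ran from -0.46 to 0.38, with 4 positive and 6 negative and a median of -0.10, beside a median of 0.0032 over all tested genes. For 8 genes the whole 95% interval lay within a 2-fold change, as it did for 73.3% of all tested genes. The exceptions were Tfrc, whose interval reached -1.01, and Hmox1, whose interval reached 1.09. Over all 24 probes, half-widths of the interval ran from 0.26 to 0.79. The plot of the probe intervals shows each of them.

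**Figure D2:**
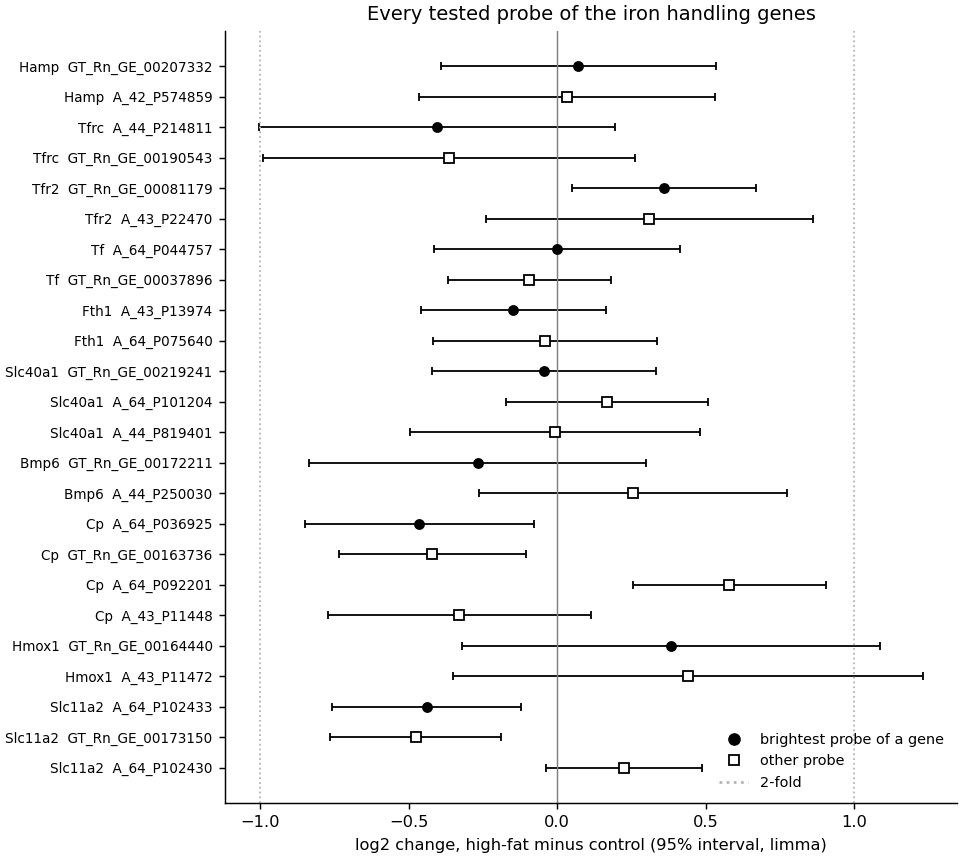
Log2 change, high-fat minus control, of every tested probe with its 95% interval from limma (n = 4 per diet), with filled circles for the probe that stands for a gene, open squares for its other probes and dotted lines at a 2-fold change. Of the 24 intervals 21 lie inside the dotted lines, and the 2 Hmox1 probes and 1 Tfrc probe reach past them.

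Hepcidin, the hormone, was measured by 2 probes that overlap by 17 bases. They therefore do not read Hamp independently.

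On the brighter probe, Hamp was at 5.78, 5.40, 5.92 and 5.47 on control replicates 1 to 4 and at 5.61, 5.37, 6.17 and 5.69 on high-fat replicates 1 to 4. The groups overlapped throughout, and the highest and the lowest array were both high-fat. The means were 5.64 ± 0.25 and 5.71 ± 0.34 (SD, n = 4), a difference of 0.07 in log2 units (95% interval -0.39 to 0.53; adjusted p = 0.91 by limma). On the linear scale this is 1.05-fold, with bounds of 0.762 and 1.45. The other probe gave 0.03 (-0.47 to 0.53; adjusted p = 0.97 by limma), with the arrays in nearly the same order. Within the slide rows the change of the brighter probe was -0.10 and 0.24, values with no test.

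The Hamp promoter is shown because the factors that induce hepcidin act there. This stretch lies 160 to 81 bases before the RefSeq start, at chr1:95300352-95300431 on the minus strand of GRCr8, and the capitals mark GGCGCC, the core of the bone morphogenetic protein response element, and TTCNNNGAA, the letters of a STAT site.
Hamp promoter: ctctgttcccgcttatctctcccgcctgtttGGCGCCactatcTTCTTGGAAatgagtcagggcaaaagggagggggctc

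RefSeq windows from 250 bases before to 50 after the start were given for 8 of the 10 genes, all but Fth1 and Hmox1, as 9 windows. GGCGCC, which reads the same on both strands, begins 129 bases before the Hamp start and 118 bases before the Tfrc start, and in none of the other 6 genes. It is found in 11.02% of the 33469 windows of that length. TTCNNNGAA, also the same on both strands, begins 117 bases before the start in Hamp alone among these genes, and occurs in 8.87% of windows. Both are found together in 183 windows, or 0.547%. TGACNNNGC, the antioxidant response element core, on either strand, has no match in the members' windows and occurs in 12.1% of all. CAGTGN, the loop of the iron responsive element, on the plus strand of the 50 bases after the start, has no match in the members' windows either and occurs in 7.26% of all. Fth1, Hmox1 and any sequence outside the windows were not searched, so the absence of a match does not cover them. These are matches of letters, and no binding was measured.

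The 3 named genes whose levels ran most like the brighter Hamp probe over the 8 arrays, of 13205 genes compared, were Fam3c with a Pearson r of 0.978, Gnb1 with 0.929 and Fbxl14 with 0.914. None of the 3 passed the test between the diets, with log2 changes of 0.06, -0.06 and 0.08. These correlations share the arrays and their scaling and are given as a description.

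BMP6, the ligand that induces hepcidin, was dim in liver RNA. Its brighter Bmp6 probe was at -4.89, -5.82, -5.19 and -4.99 on the control arrays and at -5.09, -5.91, -5.58 and -5.37 on the high-fat arrays, replicates 1 to 4. The groups overlapped, and replicate 2 was the lowest in both. The log2 change was -0.27 (-0.83 to 0.30; adjusted p = 0.67 by limma). The other probe, well above background on 3 of 4 arrays in each group, gave 0.25 (-0.26 to 0.77; adjusted p = 0.66 by limma), and -0.04 with normexp background correction, so that the probes of Bmp6 differ in sign and neither bounds the change tightly. In bulk RNA, fewer cells of a type and less RNA per cell cannot be told apart. Of the 13 tested sinusoidal endothelial markers 0 were called by limma and 3 had an unadjusted p under 0.05, and 1 was called in 5 of 22 alternatives. With 8 changes positive and 5 negative, Lyve1 was at 0.96 (adjusted p = 0.071 by limma) and Stab2 at 0.60 (adjusted p = 0.16 by limma), while Clec4g was at -0.58 (adjusted p = 0.21 by limma). Their mean level spanned -2.01 to -1.67 on control and -1.74 to -1.54 on high-fat arrays, and the part of these cells in the Bmp6 values was not tested.

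The hepatic iron sensor Tfr2, a receptor of hepatocytes that binds iron-loaded transferrin and takes part in hepcidin control, was at 2.61, 2.85, 2.85 and 2.51 on control and at 2.98, 2.97, 3.07 and 3.23 on high-fat arrays. All 4 high-fat values lay above all control values. The means were 2.71 ± 0.17 and 3.06 ± 0.12 (SD, n = 4). The change of 0.36 (0.05 to 0.67) had an unadjusted p of 0.028 and did not pass after adjustment (adjusted p = 0.26 by limma). It was 0.24 and 0.47 within the slide rows. The second Tfr2 probe, at chr12:19651125-19651185 on the plus strand of rn4, gave 0.31 (-0.24 to 0.86; adjusted p = 0.60 by limma) with overlapping groups, and within the rows 0.64 and -0.02. Without the dimmest array of each diet the second probe was at 0.0079 and the first at 0.35.

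The general transferrin receptor Tfrc, which takes up transferrin-bound iron into most cells, varied widely within the diets. Its brighter probe, at chr11:69976628-69976687 on the minus strand of rn4, was at 0.58, 0.16, -0.52 and 0.26 on control and at -0.65, -0.37, -0.29 and 0.17 on high-fat arrays. The groups overlapped, with control replicate 3 among the low values and high-fat replicate 4 among the high ones. The change was -0.41 (-1.01 to 0.19; adjusted p = 0.52 by limma), and the other tested probe gave -0.36 (-0.99 to 0.26; adjusted p = 0.59 by limma) with the arrays in a similar order.

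The Tfrc change differed between the rows of the slide. Within the rows it was -0.88 and 0.07 on the brighter probe and -0.93 and 0.20 on the other. Each row value compares 2 arrays per diet and was not tested. Without the dimmest array of each diet, both in the first row, the change of the brighter probe was -0.13. Over its 22 alternatives this change ran from -0.62 to -0.13 and was never reversed. Tfrc is also a gene of young red cells. Of 12 erythroid markers 6 were tested, with a median change of 0.84, and limma called 0, with 3 at an unadjusted p under 0.05 and 1 called in 3 of 22 alternatives. Alas2, the red cell enzyme of heme synthesis, was at 1.43 (adjusted p = 0.090 by limma), but its other probe was at 0.36 (adjusted p = 0.30 by limma). Hbb, the beta globin, was at 1.05 (adjusted p = 0.18 by limma), and the alpha globin Hba-a2 at 1.14 (adjusted p = 0.14 by limma) without overlap. The anion exchanger Slc4a1 was at -0.29 (adjusted p = 0.85 by limma), the 1 negative change beside 5 positive ones. The other probes of Hbb, Hba-a2 and Slc4a1 were at 1.05, 1.16 and -0.25. The mean level of the 6 erythroid markers spanned -1.50 to -0.45 on control and -0.29 to -0.04 on high-fat arrays. The other 6, Gata1 among them, had no tested probe, and the part of red cells in the Tfrc values was not tested.

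Another Tfrc probe was well above background on 1 control and 1 high-fat array only and was not tested. Its 60 bases lie over chr11:69978846-69980500 on the minus strand of rn4, a span far longer than the probe, as when the sequence joins exons across an intron. It is shown because it starts at base 2139 of the transcript, upstream of the bright probe at base 4357.
Tfrc junction probe: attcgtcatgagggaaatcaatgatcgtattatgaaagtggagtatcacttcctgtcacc

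Transferrin, the iron carrier secreted by hepatocytes, had the smallest change of the 10 genes. The brighter Tf probe was at 7.19, 6.77, 6.74 and 6.47 on control and at 7.08, 6.62, 6.70 and 6.76 on high-fat arrays, with replicate 1 the highest in both. The change was 0.00040 (-0.41 to 0.41; adjusted p = 1.0 by limma), or a fold between 0.751 and 1.33. The second Tf probe varied less, from 6.45 to 6.74 over all 8 arrays, and gave -0.09 (-0.37 to 0.18; adjusted p = 0.77 by limma).

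Ferritin heavy chain, the ferroxidase subunit of the iron store, was likewise close between the diets. The brighter Fth1 probe, at chr1:212432616-212432675 on the plus strand of rn4, was at 6.34, 5.93, 6.04 and 5.89 on control and at 6.01, 5.84, 5.90 and 5.85 on high-fat arrays. Control replicate 1 stood highest and the groups overlapped. The change was -0.15 (-0.46 to 0.16; adjusted p = 0.67 by limma), and the second probe, which overlaps the first on the chromosome, gave -0.04 (-0.42 to 0.34; adjusted p = 0.94 by limma). Mammalian genomes hold processed copies of this gene, and which copies the probes bind was not tested. The ferritin light chain Ftl, the other subunit, had a change of -0.04 (-0.31 to 0.23; adjusted p = 0.92 by limma).

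Ferroportin, the only known exporter of iron from cells and the target of hepcidin, had 3 probes. On the brightest, Slc40a1 was at 1.39, 1.28, 1.31 and 1.01 on control and at 0.84, 1.46, 1.28 and 1.22 on high-fat arrays. The groups overlapped, and the lowest and the highest array were both high-fat. The change was -0.04 (-0.42 to 0.33; adjusted p = 0.93 by limma). The other probes gave 0.17 (-0.17 to 0.51; adjusted p = 0.66) and -0.0081 (-0.50 to 0.48; adjusted p = 0.99 by limma).

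Heme oxygenase 1, which frees iron from heme and is an oxidative stress gene, had the widest spread. Hmox1 was at 0.33, 0.60, 1.46 and 0.58 on control and at 0.69, 1.57, 1.53 and 0.71 on high-fat arrays. Control replicate 3 and high-fat replicates 2 and 3 stood near 1.5, and the other 5 arrays stood between 0.33 and 0.71. The change was 0.38 (-0.32 to 1.09; adjusted p = 0.62 by limma), with 0.67 and 0.10 within the slide rows. On the second probe it was 0.44 (-0.35 to 1.23; adjusted p = 0.61 by limma), with 0.997 and -0.11 within the slide rows. Kupffer cells, the liver macrophages that recycle heme iron, express both Hmox1 and Slc40a1. Of the 13 tested macrophage markers 0 were called by limma and 5 had an unadjusted p under 0.05. Their changes were negative in 11 and positive in 2, with a median of -0.26. Marco had a change of -2.38 (adjusted p = 0.14 by limma), Vsig4 of -0.78 (adjusted p = 0.18 by limma) and Clec4f of -0.60 (adjusted p = 0.18 by limma). Mrc1, 1 of the 2 positive markers, was at 0.60 (adjusted p = 0.20 by limma). None of these overlapped between the diets. Cd163, the scavenger receptor for hemoglobin, was at -0.09 (adjusted p = 0.90 by limma). The mean level of the 13 macrophage markers spanned 0.44 to 1.08 on control and -0.03 to 0.79 on high-fat arrays, lowest on high-fat replicate 3, where Marco was at -2.47. Their part in the Hmox1 and Slc40a1 values was not tested.

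Ceruloplasmin is a copper ferroxidase that hepatocytes secrete and that loads iron onto transferrin, and a splice form with a GPI anchor stays on the cell surface. The array held 3 probes annotated to the Cp mRNA and 1 annotated to the mRNA of GPI-anchored ceruloplasmin, which lies further along the gene. The brightest probe, at chr2:105135264-105135323 on the plus strand of rn4, was at 5.90, 5.73, 5.92 and 5.48 on control and at 5.42, 5.48, 4.93 and 5.35 on high-fat arrays. All high-fat values lay below all control values, with high-fat replicate 2 and control replicate 4 nearly equal. The change was -0.46 (-0.85 to -0.08), with an unadjusted p of 0.023, and did not pass after adjustment (adjusted p = 0.24 by limma).

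The second Cp probe gave -0.42 (-0.73 to -0.11; adjusted p = 0.20 by limma), again without overlap. Another, at chr2:105129670-105129729 on the plus strand of rn4 and upstream of the brightest, gave -0.33 (-0.77 to 0.11; adjusted p = 0.48 by limma) with overlap. It is shown because it reads an inner part of the transcript, starting at base 2800.
Cp inner probe: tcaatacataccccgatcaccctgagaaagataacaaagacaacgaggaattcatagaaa

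The probe for the GPI-anchored form had the opposite sign. At chr2:105148774-105148833 on the plus strand of rn4, it was at -0.21, -0.56, -0.44 and -0.29 on control and at -0.06, 0.27, 0.26 and 0.34 on high-fat arrays. All high-fat values lay above all control values, and the means were -0.38 ± 0.16 and 0.20 ± 0.18 (SD, n = 4). The change of 0.58 (0.25 to 0.90) had an unadjusted p of 0.0032 and the adjusted p of 0.109 (limma) given above as the smallest among the probes, and so did not pass. It was 0.49 and 0.66 within the slide rows.

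Ceruloplasmin is also an acute phase protein. Of the 11 tested acute phase genes 1 passed the test, the alpha-1-acid glycoprotein gene Orm1, whose log2 level fell by 1.25 (adjusted p = 0.044 by limma), and the median change was -0.14. This call was lost in 12 of 22 alternatives, among them all 8 fits that left out 1 array, quantile normalization, no filter on dim probes, the replicate block and leaving out the dimmest array of each diet. Their mean level spanned 4.73 to 5.15 on control and 4.52 to 4.74 on high-fat arrays, and what this list has in common with the Cp values was not tested. The named genes that ran most like the brightest Cp probe over the 8 arrays were H1f0, Ttc36 and Lsr, each with a Pearson r of 0.964, of 13205 compared. Their log2 changes were -0.55, -0.35 and -0.43, and none passed the test between the diets. The correlations include the difference between the diets and are given as a description.

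Slc11a2, also called DMT1, carries ferrous iron across the apical membrane of the gut and out of endosomes, and is known to be made as mRNAs with different 3′ ends. Its 3 probes read different parts of the transcript. The brightest starts at base 4271, at chr7:139094505-139094564 on the minus strand of rn4, and was at 0.27, 0.30, 0.10 and 0.30 on control and at -0.23, 0.02, -0.46 and -0.12 on high-fat arrays. All high-fat values lay below all control values. The means were 0.24 ± 0.09 and -0.20 ± 0.20 (SD, n = 4), and the change of -0.44 (-0.76 to -0.12), with an unadjusted p of 0.012, did not pass after adjustment (adjusted p = 0.19 by limma). A second probe, which shares 39 bases with it and is no independent reading, gave -0.48 (-0.76 to -0.19; adjusted p = 0.13 by limma).

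The inner Slc11a2 probe starts at base 1618 and lies at chr7:139099082-139099141 on the minus strand of rn4. It is shown because its sign differed from that of the others.
Slc11a2 inner probe: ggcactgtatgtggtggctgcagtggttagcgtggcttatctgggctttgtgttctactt

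It was at -2.35, -2.37, -2.47 and -2.26 on control and at -2.10, -2.19, -2.22 and -2.03 on high-fat arrays. All high-fat values lay above all control values, by a small step. The change was 0.23 (-0.04 to 0.49; adjusted p = 0.40 by limma). In the array annotation this probe is matched to both listed Ensembl transcripts of the gene and the brightest probe to 1 of them. The named genes most like the brightest Slc11a2 probe over the 8 arrays were Tmed9 with a Pearson r of 0.964, Ppcdc with 0.963 and Ascc3l1, now Snrnp200, with 0.949. Their log2 changes were -0.48, -0.22 and -0.35, and none passed the test. These correlations too include the difference between the diets.

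**Figure D3:**
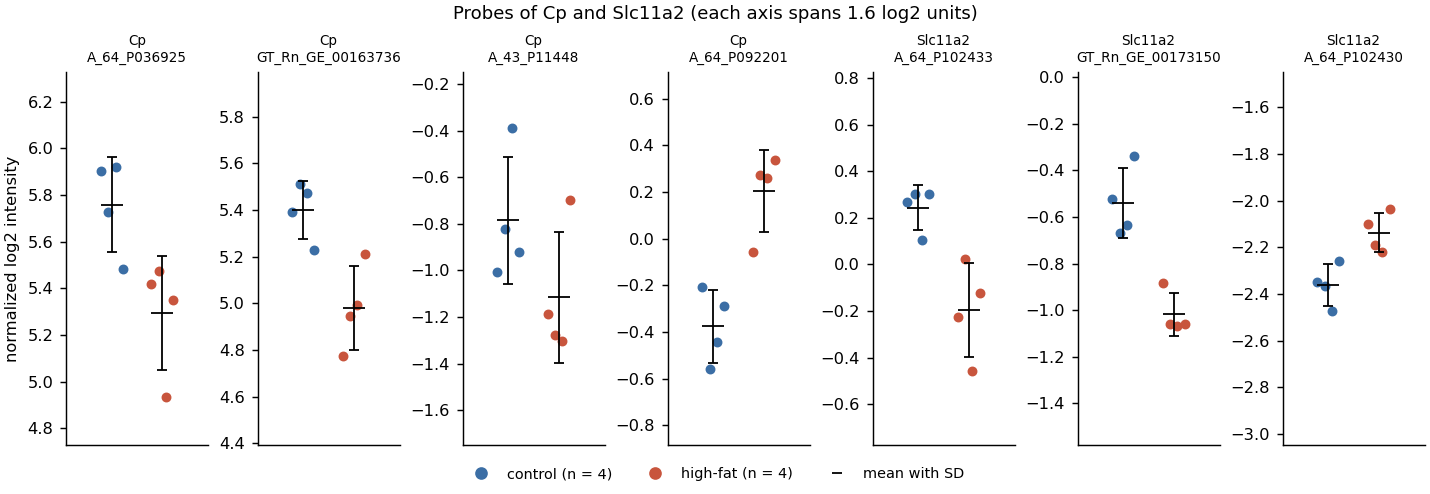
Normalized log2 intensity of each Cp and Slc11a2 probe on every array, control in blue and high-fat in red, with mean and SD (n = 4 per diet), on axes of equal span but different position. High-fat values lie lower on the first 3 Cp probes and the first 2 Slc11a2 probes, with overlap on the third Cp probe, and higher on the GPI-anchored Cp probe and the inner Slc11a2 probe.

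Of the 24 member probes 7, or 29.2%, had no overlap between the diets, 3 of Cp, 3 of Slc11a2 and 1 of Tfr2, beside 10.6% of all tested probes. By the brightest probe these were 3 of the 10 genes beside 11.1% of all tested genes. Probes of one gene share their RNA and partly their sequence and are not separate evidence. In 5 of the 10 genes the probes had changes of both signs, which in Tf were only 0.00040 and -0.09. The share of such genes over the array was not counted, so this is no trait of these genes.

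To measure the disagreement within a gene, each probe was set against the mean of the other tested probes of its gene on the same array and the difference was tested between the diets, an alternative added after the values were seen. Over 14736 such differences limma called 2, or 0.0136%, and none of them belongs to these genes. The inner Slc11a2 probe was at -2.22, -2.18, -2.21 and -2.24 relative to the others on control and at -1.55, -1.67, -1.46 and -1.44 on high-fat arrays. This difference moved by 0.68 (0.47 to 0.90) between the diets without overlap, as did 3.86% of all such differences, and failed the adjustment (adjusted p = 0.12 by limma). It was 0.59 and 0.77 within the slide rows, and the adjusted p ran from 0.056 to 0.60 over 20 alternatives.

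The same measure for the GPI-anchored Cp probe was -3.83 ± 0.28 on control and -2.85 ± 0.19 on high-fat arrays (SD, n = 4). The difference of 0.98 (0.60 to 1.37) had no overlap and also failed the adjustment (adjusted p = 0.21 by limma). Within the slide rows it was 0.92 and 1.05, and the adjusted p ran from 0.090 to 0.60 over the 20 alternatives. These values compare probes within an array and do not say which transcript moved.

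The genes varied together to different degrees over the 8 arrays, by the brightest probe of each. The highest Pearson r among the 10 were 0.80 for Slc11a2 with Cp and 0.79 for Fth1 with Tf, and the lowest was -0.76 for Slc11a2 with Tfr2. These are descriptions over 8 arrays that share the diets, the slide and the scaling.

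The wider iron network was also without a called gene. Of 82 other genes in 5 lists of iron metabolism 77 were tested, and limma called 0 of them, beside 0.877% of all tested genes. At an unadjusted p under 0.05 there were 13, or 16.9%, beside 15.6% of all genes, and 8, or 10.4%, had no overlap beside 11.1% of all. The other settings also called 0.

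In the list of hepcidin control, 26 genes were tested, with 17 changes positive, 9 negative and a median of 0.18. The smallest p belonged to the bone morphogenetic protein receptor Bmpr1a at 0.54 (0.22 to 0.86; adjusted p = 0.12 by limma), to Smad4, the shared partner of the SMAD factors, at 0.60 (0.20 to 0.997; adjusted p = 0.16 by limma), and to the ligand Bmp2 at 0.56 (0.13 to 0.99; adjusted p = 0.21 by limma). Both tested probes of each of these 3 genes had the same sign. Named outside the rule for their place in the pathway, hemojuvelin (Hfe2), the co-receptor, was at 0.05, the protease Tmprss6, which cleaves it, at -0.0084, and the target gene Id1 at -0.54 (-1.08 to 0.01; adjusted p = 0.33 by limma). The other probes of these genes were at 0.42 for Hfe2, -0.06 for Tmprss6 and -0.50 for Id1. Hfe, also outside the rule, was at 0.40 (0.07 to 0.73; adjusted p = 0.24 by limma) without overlap, and its other probes at 0.28 to 0.38. Il6, the inflammatory inducer, and Fam132b, the erythroid hormone erythroferrone, were not tested.

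In the list of ferritin partners and iron regulatory proteins, 7 of 8 changes were positive, with a median of 0.37, which was 0.10 and 0.60 within the slide rows. The iron regulatory protein 2 gene Ireb2 had a change of 0.61 (0.26 to 0.96; adjusted p = 0.11 by limma), that of iron regulatory protein 1, Aco1, 0.45 (0.11 to 0.78; adjusted p = 0.20 by limma), and the iron chaperone Pcbp2 0.42 (0.01 to 0.83; adjusted p = 0.32 by limma). None passed, and the values of the diets did not overlap for Ireb2 and Aco1.

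Among 13 tested genes of other iron transport, the median was 0.16 with 10 positive. The smallest p belonged to the siderophore binder Lcn2 at 0.39 (adjusted p = 0.24 by limma), to the ferroxidase hephaestin (Heph) at 0.53 (adjusted p = 0.27 by limma) and to the folate and heme carrier Slc46a1 at 0.53 (adjusted p = 0.31 by limma). Their other probes were at -1.06 for Lcn2, 0.12 for Heph and 0.62 for Slc46a1. The 16 genes of heme synthesis, breakdown and scavenging had a median of -0.07, with Alad, which joins aminolevulinic acid molecules in heme synthesis, at -0.45 (adjusted p = 0.29 by limma), and the biliverdin reductases Blvra and Blvrb at -0.32 and -0.30 (adjusted p = 0.38 for each by limma). The 14 tested genes of mitochondrial iron had a median of 0.02, with the cysteine desulfurase Nfs1 at 0.40 (adjusted p = 0.20 by limma) and the ferredoxin Fdx1 at -0.21 (adjusted p = 0.49 by limma).

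**Figure D4:**
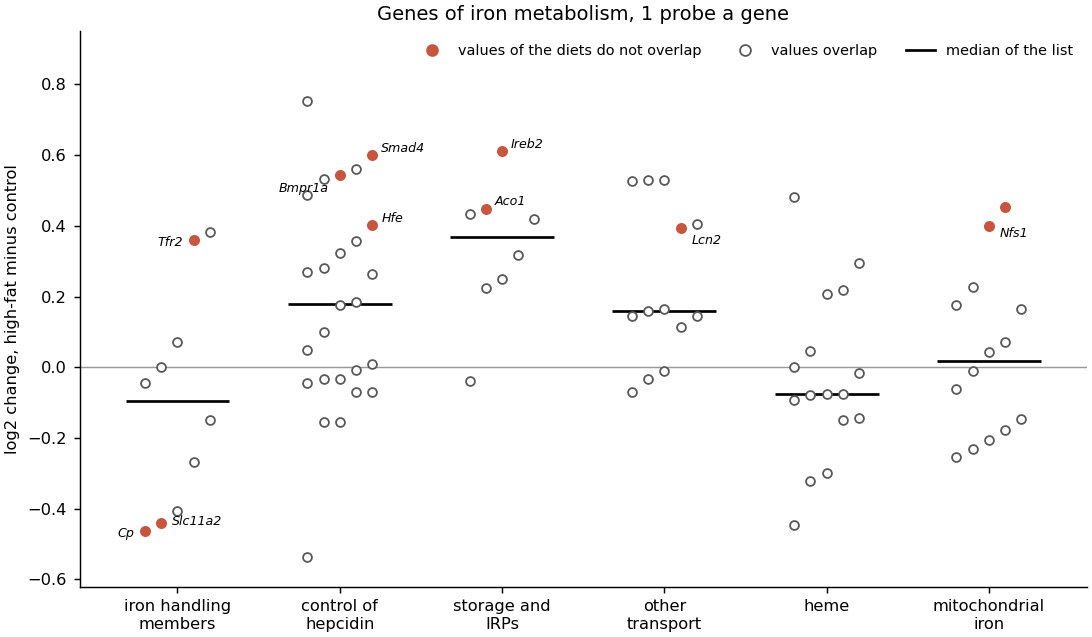
Log2 change, high-fat minus control, of each tested gene of the iron handling genes and of 5 further lists of iron metabolism, 1 probe a gene, with filled points, most of them named, where the values of the diets do not overlap and a bar at the median of each list. No point passed the adjusted test, and the medians run from -0.10 for the 10 genes to 0.37 for ferritin partners and iron regulatory proteins.

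Other lists that could move with these genes were read in the same fit. Of the 10 tested stellate cell markers 1 was called, Reln, a secreted matrix glycoprotein, which rose by 1.34 (adjusted p = 0.015 by limma), and the median was 0.04. The list had 0 calls without the filter on dim probes and with the replicate block, and the desmin gene Des was at -0.70 (adjusted p = 0.13 by limma) without overlap. Of 16 tested clock genes limma called 0, with 5 at an unadjusted p under 0.05 and a median of 0.41. The mean level of the clock genes spanned -3.85 to -3.59 on control and -3.51 to -3.12 on high-fat arrays, the labels give no time of sampling, and the part of the clock in the values of the iron handling genes was not tested.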

How the data were processed

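Liver RNA of 8 samples, 4 per diet, was analysed, with groups and replicate numbers taken from the sample titles. Per the file headers, spot intensity values come from Agilent Feature Extraction 10.7.3.1 after background subtraction and detrending, and probe coordinates are on rn4. The value table deposited by the authors is in log2 units and correlated at 0.999 or more with the scanner values of the same array. Its column medians ran from -3.21 to -3.10, it is not centred per probe, and its scaling is not given in the sources used here. It served as an alternative.

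Of 62976 spots, 58717 were not controls, and no spot was saturated. Control spots and outlier spots were left out, and each array's 75th percentile, taken over the 48.0% of probes that were well above background everywhere, was subtracted from its log2 processed signal. Spots of a probe were averaged, and a probe entered limma 3.58.1 (lmFit and eBayes, R 4.3.3) where, on 4 or more arrays, its spots well above background were no fewer than its other spots. This gave 286 called probes, 119 higher and 167 lower.

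The members and lists were chosen with earlier results of these data known. All members were named with every probe, and of the other lists those past the threshold, or else the 3 with the smallest p, with the defining markers of each cell type. Cps1, Lyve1, Clec4g, Alas2, Hba-a2, Slc4a1, Marco, Vsig4, Mrc1, Hfe and Des were named after their values were seen. Some values covered by this rule are not reported here. The number of arrays limits the precision. On 10 simulated sets of 31459 probes with 200 changed, 39.4% of 2-fold and 79.5% of 4-fold changes were recovered, and 4.55% of calls were unchanged probes. The simulated noise was drawn separately for each probe, so effects shared by the probes of an array are not in these shares.

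Alternatives changed the background correction, scaling, filter, summary per gene, variance model, array weights, blocks and threshold, and left out arrays. Sequences are those of the array files and of RefSeq (GRCr8), where promoter windows matched 8 of the 10 genes by symbol.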

Additional observations from a re-analysis of the deposited data

Results flagged for a closer look

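Of 74 sets of 4 values, 4 held an array far from the other 3, and chance gives about 1 in 20. The third ferroportin probe of Slc40a1 was at -0.25 on high-fat replicate 1 and at 0.48 to 0.50 on the other high-fat arrays. The second Slc11a2 probe was at -0.88 on high-fat replicate 1 and at -1.07 to -1.06 on the others. The mean of the hepcidin control list was -1.39 on control replicate 3 and -1.68 to -1.66 on the other controls. The mean of the hepatocyte markers was 5.003 on control replicate 4 and 5.23 to 5.27 on the other controls.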

How the results depend on the processing

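In 220 alternative values of the 10 genes 0 were called, and 7 genes kept their sign in all of theirs. Small changes crossed 0 in 15 values. Hamp ran from -0.083 (without high-fat replicate 3) to 0.18 with 1 array left out. Tf was -0.013 with scaling over all probes, -0.014 with scaling to the median, -0.010 in the authors' table, -0.047 with the mean over its probes, and -0.11 to 0.13 with 1 array left out. Slc40a1 was 0.041 with array weights, 0.039 with the mean over its probes, 0.12 without the dimmest array of each diet, and -0.13 to 0.076 with 1 array left out. Of the 20 values within slide rows, 2 moved beyond the spread, both of Tfrc.

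The count of called probes over the array, 286, depended on the setting. It was 10 without the filter on dim probes, 527 with only probes above background on every array, 543 with a trended robust variance, 167 with slide row as a block, 25 without the dimmest array of each diet, 838 at a threshold of 0.1, and 23 to 154 with 1 array left out, lowest without high-fat replicate 2. Replicate numbers did not pair the samples (correlations of deviations -0.11, 0.08, 0.17 and -0.02), and with replicate number as a block 1 probe passed. The depth of signal limits Bmp6 and the third Tfrc probe.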
